A study of Mus musculus with 6 samples.

Results

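A set of 10 genes of glucocorticoid signalling and metal binding were followed in mouse liver after silencing of *Mmab*, the gene of the enzyme that makes adenosylcobalamin, a cofactor form of vitamin B12. They were listed by name, with no threshold on measured values but with earlier results of these data known, and make up 10 of the 21297 genes in the table: the glucocorticoid receptor *Nr3c1*, the hormone-handling genes *Hsd11b1* and *Serpina6*, the glucocorticoid-induced genes *Fkbp5*, *Tsc22d3*, *Sgk1*, *Dusp1* and *Zbtb16*, and the metallothioneins *Mt1* and *Mt2*. All 10 passed the filter for testing, a mean over the 6 libraries of at least 1 CPM, the count of a gene scaled to a total of 1000000 reads. RNA-seq was done on livers of male C57BL/6J mice on a chow diet, aged 8 weeks at the start, which received 50 mg/kg of an antisense oligonucleotide (ASO, a short synthetic DNA analogue that pairs with an mRNA and directs its cleavage) by intraperitoneal injection 1 time per week for 6 weeks. The first group received an ASO against *Mmab* (MMAB ASO, n = 3 livers) and the other a control ASO (CON ASO, n = 3 livers). Livers were collected 48 h after the last injection. By the study's methods, animals were fasted the night before in vivo work unless another condition was given. Every mouse had thus received an ASO, and no uninjected group was analysed here. No corticosterone measurement was analysed here.

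Glucocorticoids are adrenal steroids that bind a receptor held in the cytoplasm by heat shock proteins. The bound receptor moves to the nucleus and switches on target genes, which in liver include enzymes of gluconeogenesis and amino acid breakdown. Metallothioneins are small, cysteine-rich proteins that bind zinc and copper. Their genes are switched on by zinc, through the transcription factor MTF1, and also by glucocorticoids and by inflammatory signals, so they stand where hormone, metal and acute-phase responses meet.

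Between MMAB ASO and CON ASO livers, both metallothioneins and *Serpina6* fell, *Tsc22d3* rose, and the other 6 members did not pass the test (limma on log2 values, Benjamini-Hochberg adjusted p under 0.05 over all 11565 genes tested). Thus 1 member was called higher, against 1.87% of all genes tested, and 3 were called lower, against 2.22%. In both directions together 4.09% of the genes tested were called. The median log2 difference of the 10 members was -0.04, beside 0.03 over all genes tested. In the plot of all members by liver, *Mt1*, *Mt2* and *Serpina6* separate the groups most clearly.

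**Figure D1:**
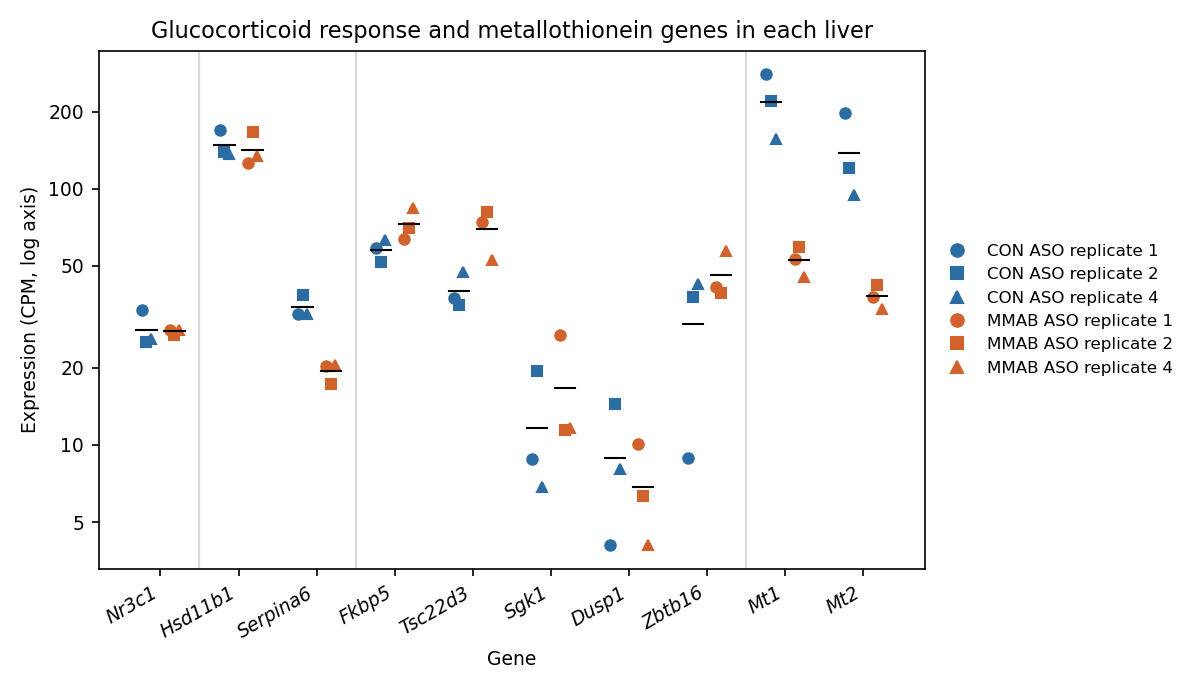
CPM of the 10 genes in each of the 6 livers (log axis), with CON ASO and MMAB ASO livers side by side and a line at each group mean. *Mt1*, *Mt2* and *Serpina6* lie lower in all 3 MMAB ASO livers, *Tsc22d3* and *Fkbp5* higher, and the groups overlap for the other 5 genes.

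The targeted gene was measured first as a check of the labels. *Mmab* (chr5:114431034-114444060, minus strand) stood at 6.31, 5.30 and 6.83 CPM in CON ASO livers 1, 2 and 4 and at 1.87, 2.69 and 1.80 CPM in MMAB ASO livers 1, 2 and 4, a 2.94-fold lower level with MMAB ASO (limma adjusted p = 0.00225). Sequencing depth, estimated from the smallest step between low values, was 44.7 to 55.4 M reads per library, so that 1 read was worth 0.0181 to 0.0224 CPM. Liver tissue was checked through its markers: the summed level of 12 hepatocyte genes ran from 52638 to 73334 CPM over the 6 livers, while 9 lymphocyte genes together reached at most 1.94 CPM. CON ASO liver 1 stood apart in its RNA make-up. Its ribosomal RNA gene CT010467.1, chosen after its values were seen, stood at 25994 CPM against 81353 to 112456 CPM in the other 5 livers, and protein-coding genes took 57.0% of its reads against 46.2% to 51.1%. Member results that rest on this library are given with and without it.

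The metallothionein genes lie side by side on chromosome 8, with 5513 bases between *Mt2* (chr8:94172664-94173568, plus strand) and *Mt1* (chr8:94179082-94180327, plus strand; GRCm38/mm10). *Mt1* stood at 279, 220.2 and 157 CPM in the CON ASO livers and at 53.2, 59.2 and 45.3 CPM in the MMAB ASO livers. Every MMAB ASO liver lay below every CON ASO liver, and the CON ASO livers were also more widely spread. The means were 219 ± 61.4 and 52.6 ± 7.0 CPM (SD, n = 3). By the means of log2 values *Mt1* was 4.07-fold lower with MMAB ASO. On the log2 scale the difference was -2.03 (SE 0.19, 95% interval -2.44 to -1.61; limma adjusted p = 2.46e-04), the 31st most negative of the 11565 genes tested.

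*Mt2* followed the same course, with 198, 120.4 and 94.2 CPM in the CON ASO livers and 37.9, 42.1 and 34.1 CPM in the MMAB ASO livers. The groups again did not overlap, and CON ASO liver 1 was the highest of the 6 for both genes. Mean *Mt2* was 137 ± 53.8 CPM with CON ASO and 38.0 ± 4.02 CPM with MMAB ASO (SD, n = 3). By the means of log2 values *Mt2* was 3.46-fold lower (log2 difference -1.79, SE 0.22, 95% interval -2.26 to -1.31, limma adjusted p = 0.00136). Without CON ASO liver 1 the log2 differences were -1.83 for *Mt1* and -1.49 for *Mt2*, both still past the threshold, as they were under all 16 alternatives run. For each of the 2 genes the exact two-sided permutation test over the 6 livers gave p = 0.1, the smallest value that 3 against 3 allows. That bound holds for each permutation test given here.

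The ratio of *Mt1* to *Mt2* CPM stayed within a narrow band while both levels moved. It was 1.41, 1.83 and 1.66 in the CON ASO livers and 1.41, 1.41 and 1.33 in the MMAB ASO livers. All 3 MMAB ASO ratios lay below the CON ASO ratios, by little for CON ASO liver 1, with a log2 difference of -0.24 (exact two-sided permutation p = 0.1). The pair could be told apart by their reads: no stretch of 30 bases was shared by the annotated transcripts of the 2 genes. *Mt2* overlaps an antisense RNA, *Gm45774*, on the opposite strand, and whether counting used strand was not given in the sources used here. *Gm45774*, named here after its values were seen, was listed at 5.21, 3.55 and 1.06 CPM in the CON ASO livers and at 1.32, 0.543 and 0.470 CPM in the MMAB ASO livers. *Mt2* itself was listed at 34.1 to 198 CPM over the 6 livers. How reads in the overlap were shared between the 2 genes was not tested.

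Promoter windows were read from RefSeq (GRCm38.p6; 250 bases before to 50 after each annotated start). They are shown for the metallothioneins because these genes moved together and because the metal response element, the site bound by MTF1, can be seen in the letters. Matches to TGCACNC or TGCGCNC on either strand are in capitals, in the window chr8:94172368-94172667 of *Mt2* and the window chr8:94178839-94179138 of *Mt1*, both on the plus strand.
Mt2: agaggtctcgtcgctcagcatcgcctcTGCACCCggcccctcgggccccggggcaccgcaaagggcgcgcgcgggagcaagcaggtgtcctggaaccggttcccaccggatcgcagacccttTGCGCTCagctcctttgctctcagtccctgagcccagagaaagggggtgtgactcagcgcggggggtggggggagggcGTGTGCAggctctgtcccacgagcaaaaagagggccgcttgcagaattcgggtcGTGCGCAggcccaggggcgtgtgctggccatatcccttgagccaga
Mt1: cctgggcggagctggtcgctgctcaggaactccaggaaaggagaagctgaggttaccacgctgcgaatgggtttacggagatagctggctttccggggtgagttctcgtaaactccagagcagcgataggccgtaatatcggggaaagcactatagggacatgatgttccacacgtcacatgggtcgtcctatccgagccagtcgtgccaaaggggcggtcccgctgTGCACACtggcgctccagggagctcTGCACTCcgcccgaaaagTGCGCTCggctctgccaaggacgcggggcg

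The *Mt2* window held 4 such matches and the *Mt1* window 3. Of 32851 RefSeq windows of this length, 0.517% held at least 4 and 1.97% at least 3. With the first base of each window as base 1, the *Mt2* matches began at bases 28, 123, 201 and 255, and the *Mt1* matches at bases 228, 253 and 271. The *Mt1* window also held 1 match to the glucocorticoid response element (GNACA and TGTNC with 3 bases of any kind between them), from base 157, which 0.475% of all windows hold at least 1 time; the *Mt2* window held none. Windows were found for 7 of the 10 members, 14 windows in all, with more than 1 for *Sgk1* and for *Tsc22d3*. The shares above are per window, so they do not apply to a gene with several windows. Sites outside the windows were not searched. Among the other 5 members with windows, *Hsd11b1* and *Dusp1* held 1 metal response match each, as did 1 of the *Sgk1* windows. A different *Sgk1* window held 1 glucocorticoid response match, and the windows of *Fkbp5* and *Tsc22d3* held neither motif. A match describes the letters only and was not tested for binding.

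Zinc transport was examined next through 22 genes of zinc transporters and metal regulation, of which 19 could be tested. Of these, 3 were lower with MMAB ASO, 0 were higher, and 16 did not pass the test. The median log2 difference of the list was -0.02, beside 0.03 over all genes. Another transporter gene, *Slc39a10*, named after its values were seen, went the other way without overlap, at 0.68, 0.777 and 0.726 CPM with CON ASO and 1.20, 1.71 and 1.12 CPM with MMAB ASO (log2 difference 0.86, limma adjusted p = 0.139). It was higher by the second rule, an unadjusted p of at most 0.05 with a fold of at least 1.5, and 1 zinc gene was called higher when the variance prior had no trend. *Slc39a4*, which encodes the importer ZIP4, moved as far as *Mt1*. Its values were 21.4, 14.2 and 15.3 CPM with CON ASO and 4.06, 3.57 and 4.58 CPM with MMAB ASO, with no overlap. The level of *Slc39a4* was 4.12-fold lower (log2 difference -2.04, SE 0.18; limma adjusted p = 1.50e-04), a call that held under all 16 alternatives.

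*Slc30a1* encodes ZnT1, which exports zinc across the plasma membrane and, like the metallothioneins, is a target of MTF1. It stood at 48.2, 44.6 and 38.5 CPM with CON ASO and at 25.5, 27.9 and 25.7 CPM with MMAB ASO. The groups did not overlap, and *Slc30a1* was 1.65-fold lower (log2 difference -0.73, limma adjusted p = 0.00956). Without MMAB ASO liver 4 its adjusted p was 0.0506. Its RefSeq window held 2 metal response matches, which 7.11% of windows hold at least.

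*Slc39a11*, the gene of the transporter ZIP11, stood at 11.9, 6.85 and 8.94 CPM with CON ASO and at 3.41, 4.97 and 5.75 CPM with MMAB ASO. It was 1.96-fold lower (limma adjusted p = 0.0403), but the call was lost under 10 of the 16 alternatives. Among the 10 that kept all livers, 6 lost it, with adjusted p from 0.0518 to 0.0903. With 1 liver left out the adjusted p was 0.117 without CON ASO liver 1, 0.142 without CON ASO liver 4, 0.10 without MMAB ASO liver 1 and 0.0585 without MMAB ASO liver 2. Each RefSeq window of *Slc39a11* held 1 metal response match, which 25.7% of windows hold at least. No window of *Slc39a4* was searched. *Mtf1* itself, named here after its values were seen, stood at 7.31, 8.07 and 8.27 CPM with CON ASO and at 10.1, 12.1 and 8.58 CPM with MMAB ASO. Its groups did not overlap but the difference of 0.37 on the log2 scale did not pass the test (limma adjusted p = 0.251).

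**Figure D2:**
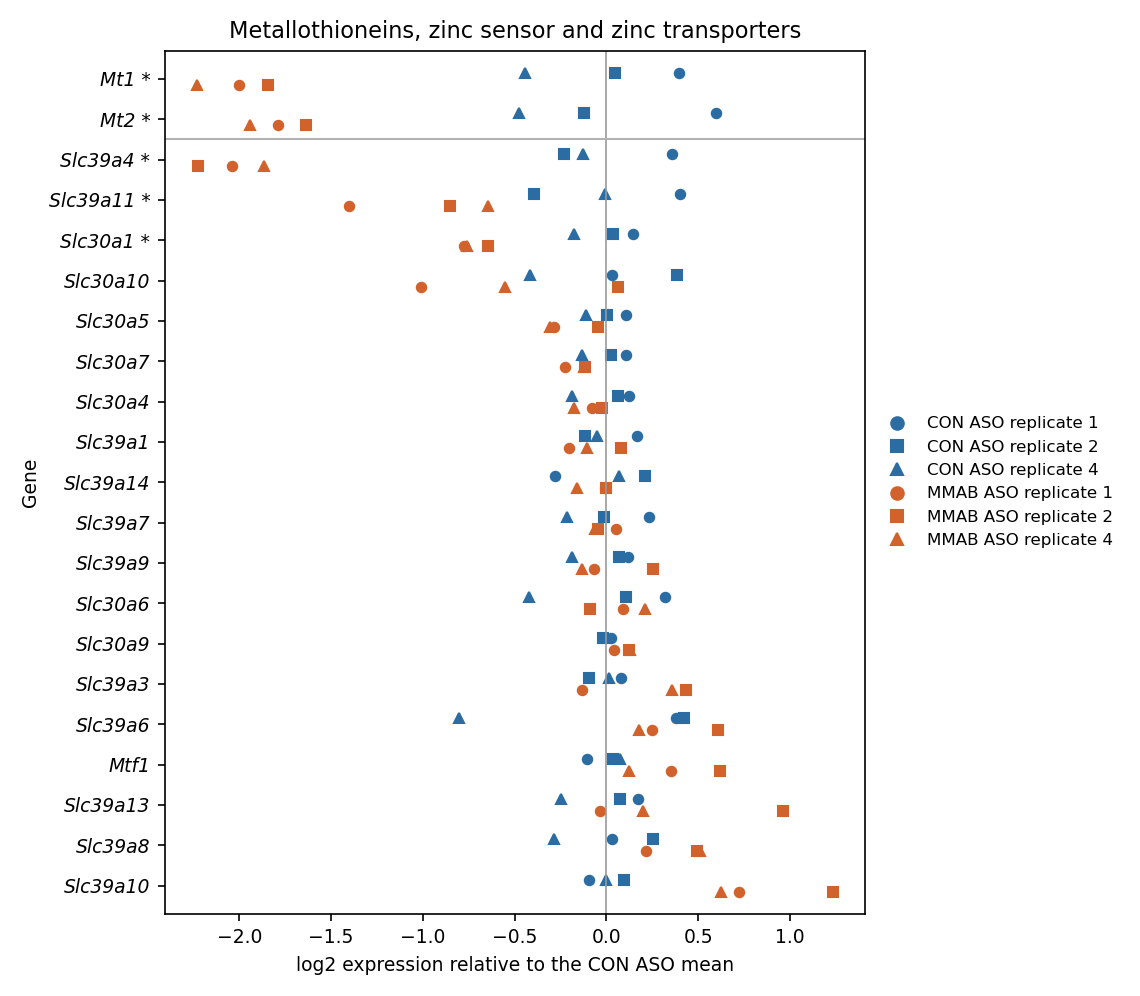
Log2 expression of *Mt1*, *Mt2* and 19 zinc genes in each liver relative to the CON ASO mean of that gene, with 1 marker per liver and asterisks at genes called at an adjusted p under 0.05. The MMAB ASO livers lie left of all CON ASO livers for *Mt1*, *Mt2*, *Slc39a4*, *Slc39a11* and *Slc30a1*, while most other transporters sit around 0.

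The genes whose profile over the 6 livers was most like that of *Mt1* were *Mt2*, *Smpd3* and *Ddah1*. Likeness was the root mean square difference of log2 values, each centred on its own mean over 6 livers, and was 0.162 for *Mt2*, 0.188 for *Smpd3* and 0.208 for *Ddah1*. *Smpd3*, the gene of a neutral sphingomyelinase, was listed at 3.61, 2.63 and 2.43 CPM with CON ASO and at 0.535, 0.693 and 0.536 CPM with MMAB ASO. *Ddah1*, whose enzyme breaks down methylated arginines, stood at 34.7, 33.1 and 21.5 CPM with CON ASO and at 9.02, 10.7 and 8.31 CPM with MMAB ASO. Like *Mt1*, both were high in the CON ASO livers and low in the MMAB ASO livers without overlap. Both were picked by their likeness to *Mt1* over these same livers, so this is no separate observation.

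Acute-phase genes, which inflammatory cytokines switch on in hepatocytes, were measured beside the metallothioneins. Of 21 listed genes 20 could be tested: 3 were lower, 0 were higher, and 17 did not pass the test. Over all genes tested 2.22% were called lower. By the second rule 8 of the 20 were lower and 0 higher, against 3.55% lower over all genes tested. An unadjusted limma p under 0.05 was found for 10. Of the 20, 19 had a negative log2 difference, against 5136 of all 11565 genes tested, and their median was -0.55. *Apcs*, the gene of serum amyloid P, fell by 1.32 on the log2 scale (limma adjusted p = 0.00711). It was joined by *Socs3*, an inhibitor of cytokine signalling (-0.95, limma adjusted p = 0.0323), and *Hamp*, which encodes the iron hormone hepcidin (-0.83, limma adjusted p = 0.0417). *Apcs* had an adjusted p of 0.0586 without CON ASO liver 4, and *Socs3* and *Hamp* each lost their call in 3 of the 6 omissions of a liver. The count of acute-phase genes called was 1 without CON ASO liver 1, CON ASO liver 4 or MMAB ASO liver 4, but 10 without CON ASO liver 2 and 7 without MMAB ASO liver 1. *Saa1*, a major acute-phase gene named after its values were seen, stood at 730.1, 69.0 and 759 CPM with CON ASO and at 394, 83.6 and 6.27 CPM with MMAB ASO. Its groups overlapped. CON ASO liver 2 was low for *Saa1* but was the highest of the 6 for *Hamp*, at 466 CPM. The part of the acute-phase genes in the fall of the metallothioneins was not tested.

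Hormone handling came next. *Serpina6* (chr12:103646630-103657212, minus strand) encodes corticosteroid-binding globulin, the liver-made plasma protein that carries most circulating glucocorticoid. Its level was 32.4, 38.6 and 32.3 CPM in the CON ASO livers and 20.3, 17.3 and 20.5 CPM in the MMAB ASO livers. The groups did not overlap, and the spread within each was small. Mean *Serpina6* was 34.5 ± 3.59 CPM with CON ASO and 19.4 ± 1.78 CPM with MMAB ASO (SD, n = 3), a 1.78-fold lower level. The log2 difference of -0.83 (SE 0.13, 95% interval -1.12 to -0.54) passed the test (limma adjusted p = 0.00604) and did so under all 16 alternatives, in which it ran from -0.89 to -0.74.

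*Hsd11b1* (chr1:193221634-193264075, minus strand) encodes the enzyme that regenerates active glucocorticoid from its inactive form inside the hepatocyte. It stood at 169.7, 139 and 137 CPM with CON ASO and at 125, 167 and 134 CPM with MMAB ASO, and the groups overlapped. The difference was -0.07 on the log2 scale with a 95% interval of -0.38 to 0.25, so a change beyond 0.767-fold down or 1.19-fold up lay outside that interval (limma adjusted p = 0.869). *Hsd11b1* lies within the span of *Lamb3* on the opposite strand, which was listed at 1.77 to 4.54 CPM over the 6 livers and is named here after its values were seen. Of 10 listed genes that make or clear active steroid in liver 8 could be tested, and 0 were called by limma at an adjusted p or at an unadjusted p under 0.05. The smallest adjusted p values in that list belonged to *Akr1d1*, whose enzyme reduces the steroid ring, with a log2 difference of -0.30 (limma adjusted p = 0.294), and *Cyp3a13*, a steroid-hydroxylating cytochrome, with 0.20 (limma adjusted p = 0.618).

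The receptor gene *Nr3c1* (chr18:39410545-39491301, minus strand) was measured at 33.5, 25.3 and 25.8 CPM with CON ASO and at 28.2, 26.8 and 28.2 CPM with MMAB ASO. The 3 MMAB ASO values lay between the lowest and the highest CON ASO value. Means of *Nr3c1* were 28.2 ± 4.58 and 27.7 ± 0.821 CPM (SD, n = 3), and the 95% interval of the ratio of MMAB ASO to CON ASO ran from 0.807 to 1.22 (limma adjusted p = 0.980). The 14 listed receptor partners, heat shock proteins, co-chaperones and coregulators, gave 13 tested genes, of which 0 were called by limma at an adjusted p or at an unadjusted p under 0.05. Their log2 differences ran from -0.35 for the co-chaperone *Dnaja1* to 0.21 for *Hsp90ab1*, the constitutive HSP90. Leaving out MMAB ASO liver 2 brought 1 of the 13 past the threshold.

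Among the induced genes, *Tsc22d3* (chrX:140539528-140600659, minus strand) encodes GILZ, a leucine zipper protein that mediates part of the anti-inflammatory action of glucocorticoids. Its values were 37.4, 35.1 and 47.2 CPM with CON ASO and 74.1, 81.4 and 52.8 CPM with MMAB ASO. The groups did not overlap, although MMAB ASO liver 4 lay near the highest CON ASO liver. *Tsc22d3* rose from 39.9 ± 6.45 to 69.4 ± 14.9 CPM (SD, n = 3), or 1.73-fold (log2 difference 0.79, SE 0.17, 95% interval 0.41 to 1.16; limma adjusted p = 0.0279). The adjusted p was 0.0789 without CON ASO liver 1, 0.0521 without CON ASO liver 4, 0.0695 without MMAB ASO liver 1 and 0.0722 without MMAB ASO liver 2, with log2 differences from 0.66 to 0.97 over all 6 omissions.

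Most tested markers of endothelial, stellate and Kupffer cells stood higher beside this rise. Endothelial markers summed to 41.0 to 64.0 CPM in CON ASO livers and 94.3 to 108 CPM in MMAB ASO livers, and 7 of the 10 were called higher. Stellate cell markers summed to 78.0 to 105 CPM and 132 to 163 CPM, with 5 of 8 called higher. Kupffer cell and macrophage markers, 2 of 7 tested called higher, summed to 73.9, 19.4 and 19.1 CPM in the CON ASO livers and to 72.7, 40.0 and 55.5 CPM in the MMAB ASO livers. Their groups overlapped through CON ASO liver 1 alone, and without it both CON ASO sums lay below all 3 MMAB ASO sums. Of the 7, 6 had a positive log2 difference and 1 a negative. The negative gene was *Marco*, named after its values were seen, at 15.7, 0.813 and 0.805 CPM with CON ASO. With MMAB ASO it stood at 0.426, 0.134 and 0.380 CPM, without overlap. Its log2 difference was -2.96 (limma adjusted p = 0.108), lower by the second rule. Neutrophil markers stayed at or below 0.345 CPM in sum, and 0 of 12 hepatocyte markers were called (1 at an unadjusted limma p under 0.05; median log2 difference -0.20). In bulk tissue, a change in the number of cells of a type and a change in RNA per cell cannot be told apart. The part of these cells in the change of *Tsc22d3* or of any other member was not tested.

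*Fkbp5* (chr17:28399095-28517524, minus strand) encodes FKBP51, a co-chaperone that lowers the hormone affinity of the receptor and is itself induced by glucocorticoids. It stood at 58.7, 51.6 and 63.1 CPM with CON ASO and at 63.8, 70.3 and 84.1 CPM with MMAB ASO. The groups were separate by less than 1 CPM, between CON ASO liver 4 and MMAB ASO liver 1. Across all genes tested, 22.7% had groups that did not overlap, and among the members these were *Fkbp5*, *Tsc22d3*, *Serpina6*, *Mt1* and *Mt2*. Mean *Fkbp5* was 57.8 ± 5.81 and 72.7 ± 10.3 CPM (SD, n = 3), a ratio of 1.25 with a 95% interval of 0.03 to 0.63 on the log2 scale and an unadjusted limma p of 0.0352. It did not pass after adjustment (limma adjusted p = 0.243), nor under any of the 16 alternatives.

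*Sgk1* (chr10:21882184-21999903, plus strand), the gene of a kinase that regulates ion transport and cell survival, was listed at 8.79, 19.4 and 6.86 CPM with CON ASO and at 26.8, 11.4 and 11.6 CPM with MMAB ASO. Within each group 1 liver lay far above the other 2, CON ASO liver 2 and MMAB ASO liver 1, and the groups overlapped. The log2 difference of 0.53 (SE 0.37, 95% interval -0.28 to 1.35; limma adjusted p = 0.505) depended on these livers. For *Sgk1* it was 0.98 without CON ASO liver 2, just past the threshold with a limma adjusted p of 0.049956, and 0.13 without MMAB ASO liver 1.

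*Dusp1* (chr17:26505590-26508519, minus strand) encodes a phosphatase that switches off MAP kinases and is induced within minutes by glucocorticoids, stress and growth factors. It was listed at 4.06, 14.5 and 8.07 CPM with CON ASO and at 10.1, 6.30 and 4.09 CPM with MMAB ASO. The groups overlapped almost fully, and the log2 difference of -0.29 had a 95% interval of -1.16 to 0.58 (limma adjusted p = 0.774). Without CON ASO liver 1 the log2 difference was -0.76 (limma adjusted p = 0.290). Its sign turned without CON ASO liver 2, to 0.16, and without MMAB ASO liver 4, to 0.03.

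Immediate early genes, a class that acute stimuli can induce within minutes, also varied between livers. Of the 11 tested, CON ASO liver 2 was the highest of its group for 6, and MMAB ASO liver 1 the highest of its group for 9. *Btg2*, named with *Egr1* and *Jun* after the values were seen, stood at 7.46, 28.1 and 9.91 CPM with CON ASO and at 14.5, 4.55 and 6.28 CPM with MMAB ASO. *Egr1* stood at 1.39, 15.4 and 12.7 CPM and at 6.80, 3.71 and 2.38 CPM. CON ASO liver 2 was the highest of the 6 for *Btg2*, *Egr1* and *Dusp1*, and MMAB ASO liver 1 was the highest of its group for all 3. For *Jun*, a subunit of AP-1, CON ASO liver 4 was instead the highest of its group, at 15.2 CPM against 13.7 CPM in liver 2. Of 15 listed immediate early genes 11 could be tested and 0 were called by limma, with 2 at an unadjusted p under 0.05: *Junb* with a log2 difference of -0.68 (limma adjusted p = 0.108) and *Klf6* with 0.57 (limma adjusted p = 0.110). Of the other dual-specificity phosphatases 5 of 10 could be tested and 0 were called by limma, with *Dusp6* at 0.45 (limma adjusted p = 0.184) the only one under an unadjusted p of 0.05. The part of this variation in the values of *Sgk1* and *Dusp1* was not tested.

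*Zbtb16* (chr9:48654297-48836222, minus strand), the gene of the transcription factor PLZF, had the widest range of the members. Its values were 8.88, 37.9 and 42.5 CPM with CON ASO and 41.4, 39.3 and 57.2 CPM with MMAB ASO. The range came from CON ASO liver 1, which lay 4.78-fold below the highest CON ASO liver, while the other 5 livers ran close together. The log2 difference of *Zbtb16* was 0.90 (SE 0.44, 95% interval -0.07 to 1.87; limma adjusted p = 0.318) with all livers and 0.18 (limma adjusted p = 0.629) without CON ASO liver 1. The profile most like it over the 6 livers was that of *Lars2*, the gene of the mitochondrial leucyl-tRNA synthetase, at a root mean square difference of 0.183 on the log2 scale. *Lars2* stood at 668, 2128 and 2644 CPM with CON ASO and at 2575, 3181 and 3527 CPM with MMAB ASO, also lowest in CON ASO liver 1. Next came *Gm43361* at 0.198 and *Gm12896* at 0.222, both likewise lowest in that liver. These genes were picked by their likeness to *Zbtb16*, so the shared low value is no separate observation. CON ASO liver 1 is the library with the low ribosomal RNA level given above. The part of that difference in the values of *Zbtb16*, *Lars2*, *Gm43361* or *Gm12896* was not tested.

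**Figure D3:**
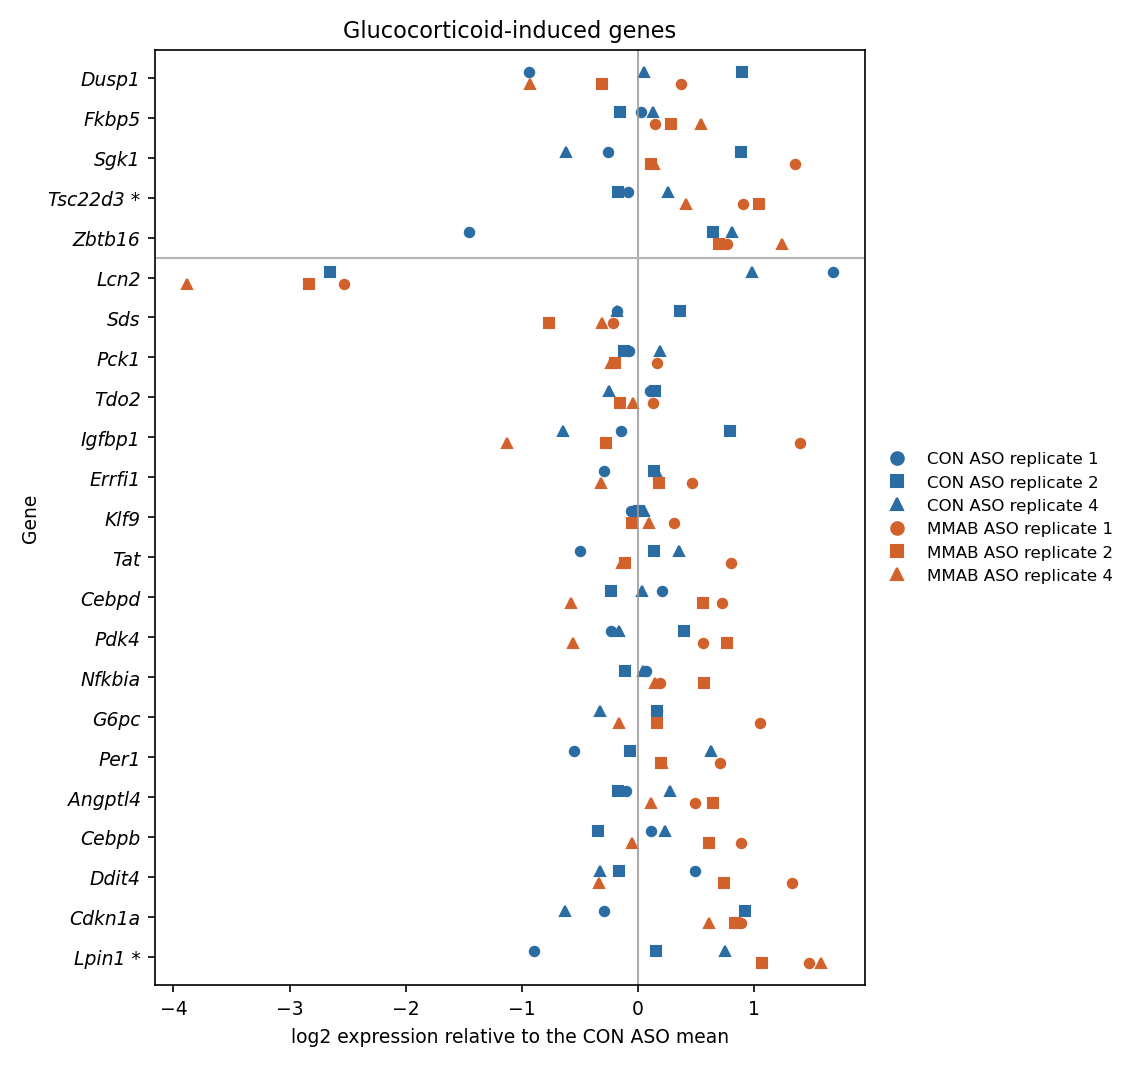
Log2 expression of 5 induced members (top) and 18 other glucocorticoid-induced genes in each liver relative to the CON ASO mean of that gene, with 1 marker per liver and asterisks at genes called at an adjusted p under 0.05. *Tsc22d3* and *Lpin1* lie right in all 3 MMAB ASO livers, *Zbtb16* has 1 low CON ASO liver, and *Sgk1* and *Dusp1* are scattered in both groups.

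Glucocorticoid-induced liver genes outside the members were mostly not called. Of 19 listed, 18 could be tested: 1 was higher, 0 were lower and 17 did not pass the test. Of the 18, 13 had a positive and 5 a negative log2 difference, and the median was 0.24, beside 0.03 over all genes. An unadjusted limma p under 0.05 was found for 6, and the second rule gave 2 higher and 1 lower. *Lpin1*, whose product lipin 1 makes diacylglycerol and coactivates fasting genes, stood at 19.6, 40.7 and 61.4 CPM with CON ASO and at 101.6, 76.7 and 109 CPM with MMAB ASO. It rose 2.59-fold without overlap (log2 difference 1.37, SE 0.31; limma adjusted p = 0.0325), and its adjusted p without MMAB ASO liver 4 was 0.108. *Lpin1* had no call under 6 of the 16 alternatives.

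Several classical targets of the receptor were not called. Log2 differences were 0.18 for *Tat*, tyrosine aminotransferase, -0.09 for *Pck1*, the gluconeogenic carboxykinase, -0.03 for *Tdo2*, tryptophan dioxygenase, and 0.35 for *G6pc*, glucose-6-phosphatase. Those of *Per1* and *Klf9*, transcriptional regulators induced directly by the receptor, were 0.37 and 0.12. The groups overlapped for all 6 of these genes, which were named for their textbook roles after the values were seen, and none passed the limma test. Larger positive log2 differences, also named after the values were seen, were 0.78 for *Cdkn1a*, 0.58 for *Ddit4*, 0.48 for *Cebpb* and 0.42 for *Angptl4*. The groups of these genes overlapped. *Nfkbia* stood at 0.30 without overlap. The limma adjusted p values of *Cdkn1a*, *Ddit4*, *Cebpb*, *Angptl4* and *Nfkbia* were 0.191, 0.427, 0.279, 0.207 and 0.295 in that order. *Cdkn1a* was higher by the second rule. *Sds*, the gene of serine dehydratase, an enzyme of amino acid breakdown, was likewise named after its values were seen. It stood at 142.8, 208 and 142.8 CPM with CON ASO and at 139, 94.998 and 131 CPM with MMAB ASO, without overlap but narrowly so. Its log2 difference of -0.43 did not pass the test (limma adjusted p = 0.242). *Lcn2*, which is switched on by inflammation as well as by glucocorticoids, was also named after its values were seen. It was listed at 53.3, 2.65 and 32.8 CPM with CON ASO and at 2.89, 2.34 and 1.13 CPM with MMAB ASO, high in CON ASO livers 1 and 4 only. Its log2 difference was -3.08 (limma adjusted p = 0.0600). The count called in the list was 0 without MMAB ASO liver 4, 2 without MMAB ASO liver 1 and 3 without CON ASO liver 2.

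Close relatives of the members were compared as well. Of 6 paralogs of *Tsc22d3*, *Sgk1* and *Fkbp5*, 0 were called by limma and 1 had an unadjusted p under 0.05. Under 4 of the 16 alternatives (median-ratio scaling, array weights, the replicate block and without MMAB ASO liver 2) 1 paralog was called lower. The gene with the unadjusted p under 0.05 was *Sgk2*, at 31.2, 36.7 and 24.4 CPM with CON ASO and 16.8, 23.5 and 19.1 CPM with MMAB ASO. Its groups did not overlap, and its log2 difference of -0.63 was opposite in sign to that of *Sgk1* (limma adjusted p = 0.0659). *Tsc22d4* was at -0.32 (limma adjusted p = 0.342) and *Fkbp4*, the other large receptor co-chaperone of its kind, named after its values were seen, at -0.01 with overlapping groups. The difference between each member and its paralogs was not tested.

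How far each member depended on a single liver is drawn in the plot of differences with each liver left out. *Mt1*, *Mt2* and *Serpina6* kept their sign and their call in all 6 omissions, with log2 differences of -2.25 to -1.83 for *Mt1*, -2.03 to -1.49 for *Mt2* and -0.87 to -0.74 for *Serpina6*. *Tsc22d3* kept its sign in all 6 and its call in 2. By the second rule the same counts of 1 member higher and 3 lower were found, against 5.52% higher and 3.55% lower among all genes tested.

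**Figure D4:**
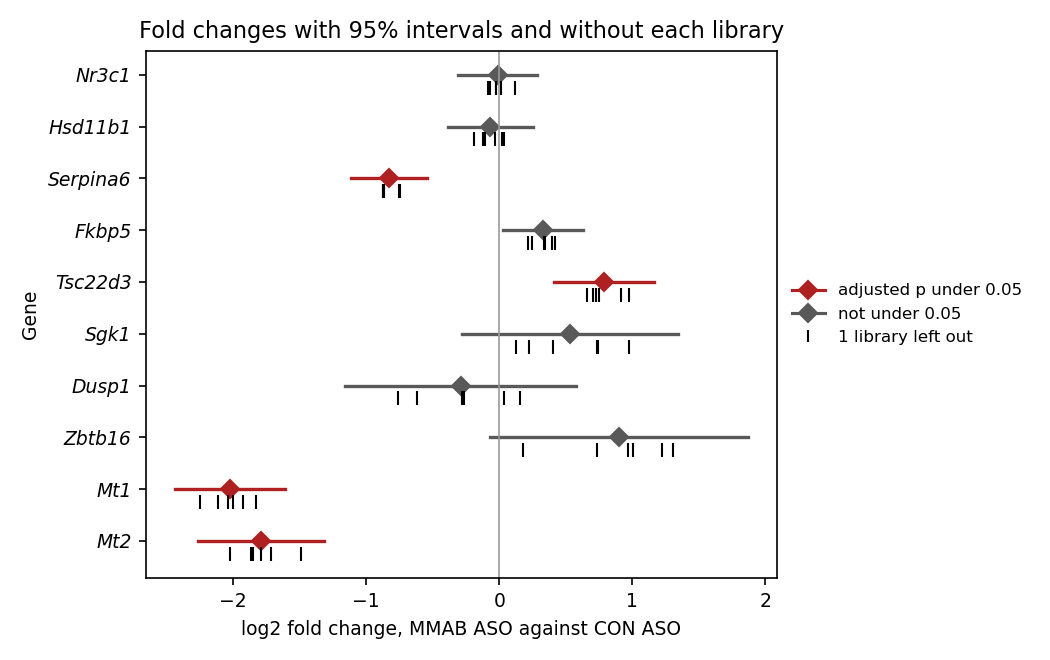
Log2 difference (MMAB ASO minus CON ASO) of each of the 10 genes from all 6 livers with its 95% interval, and the same difference with each liver left out in turn. The intervals of *Mt1*, *Mt2*, *Serpina6*, *Tsc22d3* and *Fkbp5* lie clear of 0, and the omissions for *Zbtb16*, *Sgk1* and *Dusp1* are spread widely.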

How the data were processed

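Processed values were taken as the authors deposited them: log2 of CPM with 0.0001 added, made in PartekFlow (version 8.0.19.0405, per the labels' processing notes) by STAR alignment to GRCm38/mm10, Partek E/M quantification and scaling to the total count. The lowest deposited value was -13.29. Libraries were prepared after removal of ribosomal RNA. All 6 value columns matched a labelled liver, each a separate mouse. Of the symbols, 20 had become dates. These were replaced by labels made of chromosome and start position, and their gene names were not recovered.

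The log2 values were tested with limma 3.58.1 (R 4.3.3; trend in the variance prior, no covariate) on the genes whose mean reached 1 CPM, with Benjamini-Hochberg adjustment over 11565 genes. Fold changes come from the group means of the deposited log2 values, so they can differ from the ratio of the mean CPM printed beside them. No count test was run, since only 58.5% to 59.9% of values of up to 20 estimated reads were whole multiples of 1 read within 0.01 reads. The study's own test was not run; its thresholds (p up to 0.05 before adjustment, 1.5-fold or more) served as the second rule. The fit was checked on simulated data. Members and gene lists were chosen with earlier results of these data known. Named genes were the members, *Mmab*, up to 4 called genes of each list (or the 2 with the smallest adjusted p where none was called) and, for the 2 members with the widest range, the 3 most similar profiles; others are marked as chosen after their values were seen. Same-numbered livers of the groups did not deviate together (correlations -0.02, 0.05 and -0.005), so numbers were not used as pairs. The alternatives were other scalings, pseudocounts, filters and variance models, a replicate block, and leaving out each liver.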

Additional observations from a re-analysis of the deposited data

How the results depend on the processing

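The members' direction and side of the threshold held in 141 of 160 values, 10 members under 16 alternatives. The sign turned in 11 values, all of uncalled genes. These were *Nr3c1* with quantile normalization (0.0071), protein-coding sum scaling (0.077) and array weights (0.065), and *Hsd11b1* with quantile normalization (0.048) and protein-coding sum scaling (0.023). With 1 liver left out, *Nr3c1* ranged from -0.085 to 0.12 (above 0 without CON ASO liver 1 or MMAB ASO liver 2), *Hsd11b1* from -0.19 to 0.034 (above 0 without CON ASO liver 1 or MMAB ASO liver 1) and *Dusp1* from -0.76 to 0.16 (above 0 without CON ASO liver 2 or MMAB ASO liver 4). Members called ranged from 3 to 5, against 4 in the design chosen, with *Tsc22d3* lost under median-ratio scaling (adjusted p 0.0675), no filter (0.0707) and no trend (0.0766). Over all genes, 473 were called, 255 with no filter, 268 with a filter at a mean of 5 CPM, 768 with array weights and 157 to 536 with 1 liver left out. The share of calls that were higher, 45.7%, became 28.0% with median-ratio scaling, 65.7% with protein-coding sum scaling, 34.3% with the filter at 5 CPM and 28.4% to 62.7% with 1 liver left out. Protein-coding sum scaling moved the median of all genes to 0.12 on the log2 scale, from 0.03; *Mt1*, *Mt2* and *Serpina6* kept their calls under it, and the signs of *Nr3c1* and *Hsd11b1* there lie within that shift. With the replicate block 430 genes and 4 members were called. The cause of each change was not tested. With 3 livers per group, exact permutation tests cannot go below 0.1.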

Other observations

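Clock genes, through which feeding and glucocorticoids act on liver rhythms, were listed beside the members, since the hour of collection was not given in the sources used here. Of 15, 0 were called by limma and 5 had an unadjusted p under 0.05. The output factor *Dbp* stood at 2.59, 2.09 and 8.49 CPM in CON ASO livers and at 0.998, 0.704 and 1.71 CPM in MMAB ASO livers, without overlap (log2 difference -1.75, limma adjusted p = 0.0600). The repressor *Cry2* stood at 21.3, 15.8 and 19.4 CPM and at 12.5, 10.1 and 14.7 CPM, also without overlap (-0.60, limma adjusted p = 0.0686). The count of clock genes called was 3 without CON ASO liver 2, 2 with the replicate block and 1 without MMAB ASO liver 4.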
